A study of Canis lupus familiaris with 22 samples.

Results

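ATM, BRCA1, PRKDC and MDM2 are genes of the DNA damage response. They were chosen by name and are 4 of the 36619 genes targeted by the canine array, on which each of them has 1 probe, found by the RefSeq transcript that the probe targets. Malignant and benign mammary tumours were taken at surgery from affected dogs, and mammary tissue of healthy dogs served as the control. Total RNA was labelled with Cy3 and hybridized to 1-colour Agilent arrays, so that the brightness of a spot follows the amount of its transcript in that tissue. Scanner values were analysed for 19 of 22 arrays, namely 9 arrays of 5 dogs with malignant tumours, 6 arrays of 3 dogs with benign tumours and 4 arrays of 2 healthy dogs. A dog has a pair of arrays, a and b, treated here as duplicates of its sample, except malignant dog 5, for which array a alone entered. The dog was taken as the replicate. Dogs carry the number of their label within each group, so that healthy dog 1 and malignant dog 1 are separate animals. No treatment is named for any group, and age, breed and histological type were not used here.

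Cells answer breaks and other lesions in DNA by stopping the cell cycle, repairing the damage or entering apoptosis. ATM is a kinase switched on at DNA breaks, where it phosphorylates checkpoint and repair proteins, among them BRCA1 and MDM2. PRKDC encodes the catalytic subunit of the DNA-dependent protein kinase, which joins broken ends together with the Ku proteins, whereas BRCA1 acts in repair by homologous recombination. MDM2 is a ubiquitin ligase that marks proteins of the damage response for degradation and so restrains cell cycle arrest and apoptosis. In women, inherited mutations of BRCA1 and of ATM raise the risk of breast cancer, and mammary tumours are among the common tumours of female dogs.

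The level of a gene is the log2 of the background-subtracted signal minus the 75th percentile of the array, so that a level of 0 is as bright as the 75th percentile. A spot counts as well above background where the scanner software marks it so. Healthy arrays had 62.1% to 71.4% of the probes well above background (median 67.7%), against 63.7% to 76.3% in malignant (median 72.5%) and 71.5% to 83.2% in benign tumours (median 73.6%). The 75th percentile was 14.1 times the local background at the median of the healthy arrays, 18.4 times for malignant and 30.9 times for benign tumours. Healthy tissue was thus measured at the lowest signal over background of the 3 groups, which bears on genes near the limit of detection. The arrays of a dog correlated at 0.982 to 0.990 over probes.

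The labelled tissue was compared with marker genes. The 6 of 13 mammary epithelial markers paired with a probe gave summed linear levels of 33.9 and 80.6 in healthy dogs 1 and 2 and of 3.38 to 350 in tumours, with KRT14 or KRT19 the most abundant. The lowest sum was that of malignant dog 5, whose sum of adipose markers, 18.1, was the highest of all dogs, with ADIPOQ at a level of 4.12. Markers of exocrine pancreas were present in both healthy samples, with 5 of 14 listed genes on the array and a summed linear level of 4268.63 and 1049.75, against 0.63 to 2.39 in the tumours. The most abundant of them was PLA2G1B, at a level of 10.18 in the first and 8.85 in the second, and all 5 were lower in tumours by limma in both comparisons with healthy tissue. All 5 islet markers were on the array as well, with sums of 786 and 28.0 in the healthy dogs, led by INS, and of 0.20 to 4.87 in tumours, the highest in benign dog 2. Transcripts of pancreatic enzymes and hormones were thus abundant in both healthy samples, in healthy dog 1 more than in healthy dog 2, and their part in the results on DNA damage genes was not tested.

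**Figure D1:**
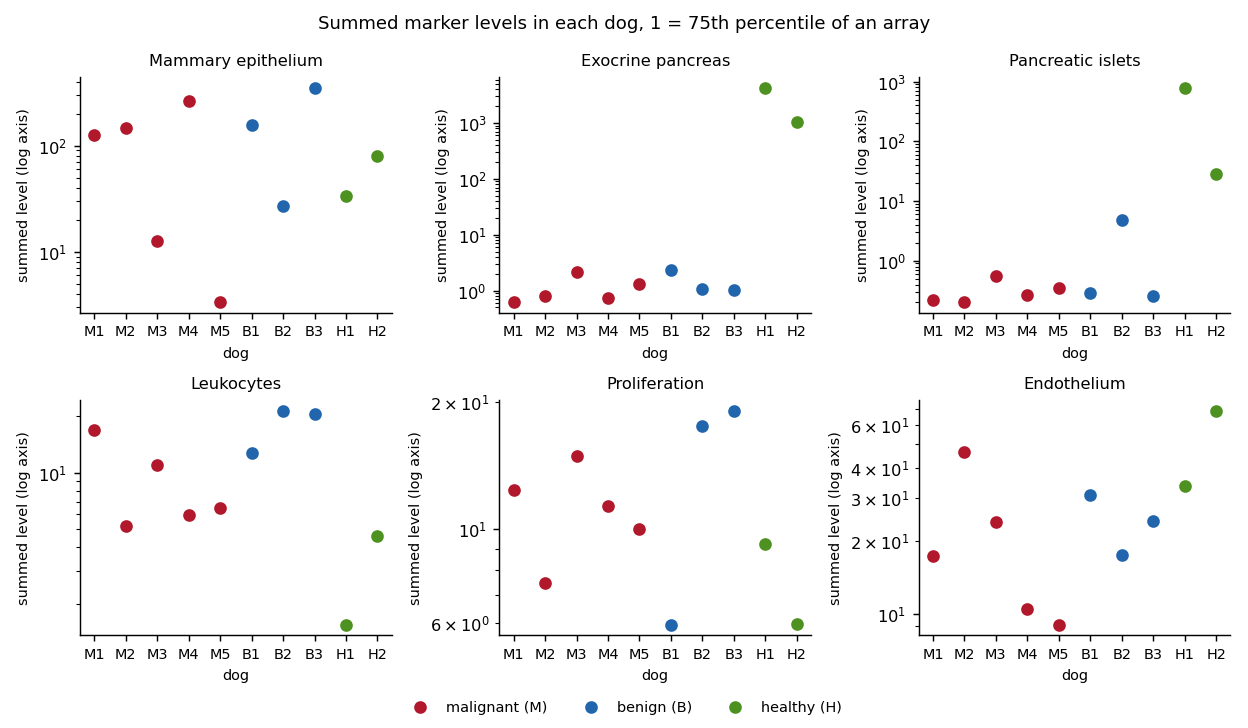
Summed linear levels of 6 marker lists in each dog (vertical log axis, 1 = the 75th percentile of an array), 1 point a dog, for malignant (M), benign (B) and healthy (H) samples. Exocrine pancreas markers sum to 4268.63 and 1049.75 in the healthy dogs and to at most 2.39 in the tumours.

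Whether tumours differ from healthy mammary tissue in these genes was asked separately for malignant and benign tumours, with the same 2 healthy dogs in both comparisons. All probes well above background on at least 4 arrays, 35285 in number, were tested with limma in 1 fit of the 3 groups, with Benjamini-Hochberg adjustment over all of them. None of the 4 genes was called in any comparison. In malignant tumours against healthy tissue limma called 0 of 4, and 0.417% of all probes (147, all of them lower in tumours). Without adjustment, at a p of at most 0.05, limma gave 2 of the 4, BRCA1 and PRKDC, and 5.81% of all probes, and the methods' t-test, run unpaired and without adjustment, gave the same number of the 4. In benign tumours limma called 0 of 4 genes and 0.38% of all probes, and without adjustment 1 of the 4, PRKDC, and 6.78% of all probes. Counted by separation alone, BRCA1 and PRKDC were higher in every tumour than in both healthy dogs, which held for 2.72% of all probes. For BRCA1 this order lay partly among signals not well above background, in both healthy dogs, malignant dog 5 and benign dog 1, and did not hold in the raw median signals, which include the local background. For malignant dogs alone this share of all probes was 4.26%, and for benign dogs alone it was 12.4%, where MDM2 also met it. With so few healthy dogs, an exact permutation test over dogs can reach no lower than p = 0.0952 for 5 malignant against 2 healthy dogs and 0.2 for 3 benign against 2.

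**Figure D2:**
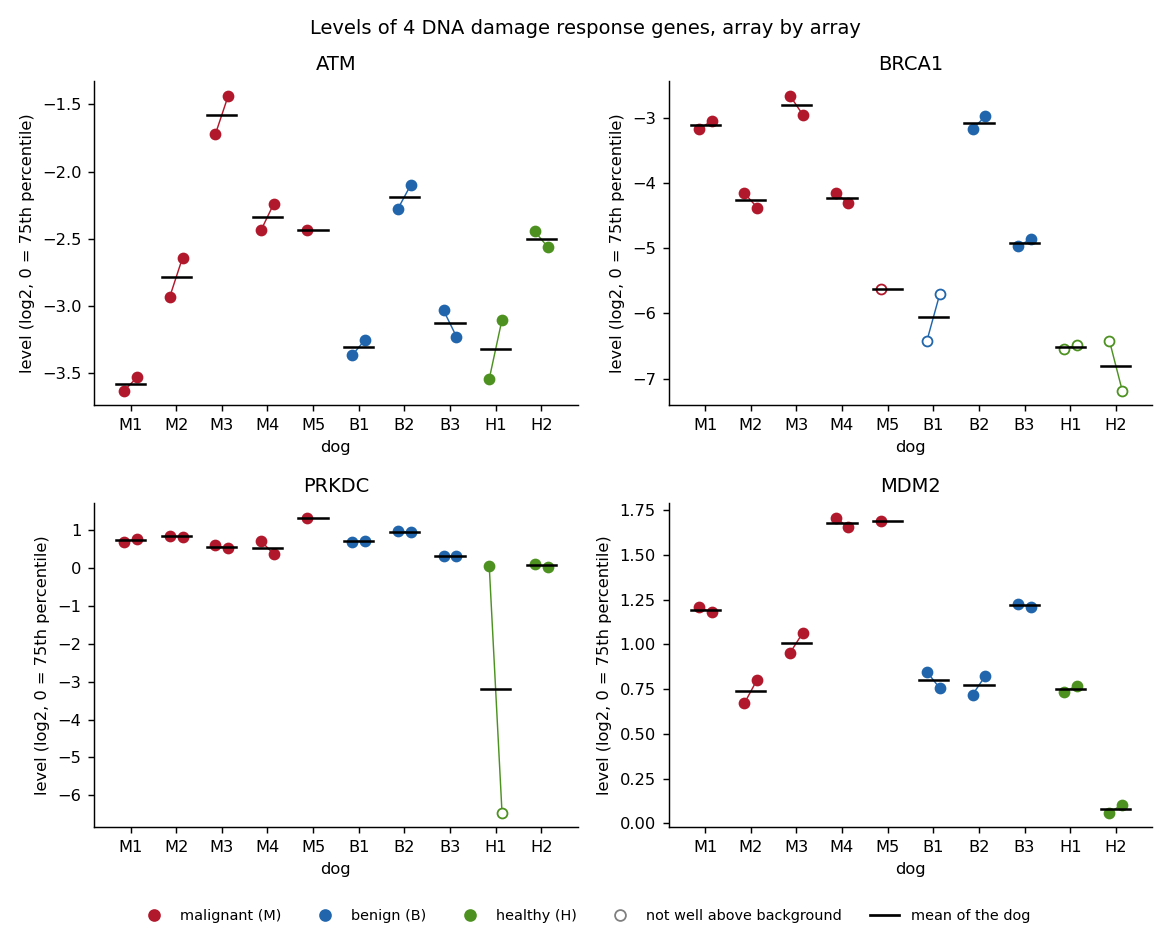
Level of each gene on each array (points; log2, 0 = the 75th percentile of the array), with the arrays of a dog joined by a line and the mean of the dog as a black bar, for 5 malignant (M), 3 benign (B) and 2 healthy (H) dogs. Open points are spots not well above background, as BRCA1 is on all 4 healthy arrays and PRKDC on array b of healthy dog 1.

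Of the kinases, ATM showed overlapping groups. Its level was -3.58, -2.79, -1.58, -2.34 and -2.44 in malignant dogs 1 to 5, -3.31, -2.19 and -3.13 in benign dogs 1 to 3, and -3.32 and -2.50 in healthy dogs 1 and 2. It was well above background on all 19 arrays. Both the lowest and the highest value belonged to malignant tumours, and 4 of 8 tumours lay above both healthy dogs, 1 below them and the others between. The group means were ordered malignant (-2.54 ± 0.728 SD, n = 5), benign (-2.88 ± 0.602, n = 3) and healthy (-2.91, n = 2), and no neighbours in this order differed beyond their spread. The log2 fold change by limma was 0.37 (SE 0.59, adjusted p = 0.971 by Benjamini-Hochberg) in malignant and 0.04 (SE 0.644, adjusted p = 0.9997) in benign tumours, with exact permutation p of 0.667 and 0.8. The 95% interval for malignant tumours, -0.94 to 1.67, leaves room for a difference of either sign.

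The sign of the ATM difference turned with the setting. With normexp background correction it was -0.20 in malignant and -0.63 in benign tumours, where the median of all probes stood at -0.19 and -0.49, and without healthy dog 1 it was -0.041 and -0.37. Within slides, malignant minus healthy ATM was -0.64 on slide 2, -0.13 on slide 4 and 0.32 on slide 5, and benign minus healthy was -0.37 on slide 2 and -0.68 on slide 5. With the slide as a block it was 0.20 in malignant and -0.041 in benign tumours. ATM thus had no settled direction in either tumour group.

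PRKDC was uniform in tumours. Its level was 0.74, 0.84, 0.57, 0.55 and 1.34 in malignant dogs 1 to 5 and 0.71, 0.97 and 0.32 in benign dogs 1 to 3, with means of 0.81 ± 0.321 (SD, n = 5) and 0.67 ± 0.328 (n = 3). It was well above background on all 15 tumour arrays, and the arrays of a dog differed by 0.066 at the median of all dogs. The healthy dogs stood at -3.20 and 0.075, a gap of 3.27 between them, against a median of 0.90 for the healthy dogs over all probes. All 8 tumours lay above both healthy dogs.

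The low value of healthy dog 1 came from 1 spot. On array a, PRKDC had a processed signal of 541 and a level of 0.065, close to healthy dog 2 (0.12 and 0.027 on its arrays). On array b of the same dog the signal was 4.09, against a local background of 47.5, and the level -6.46, with no outlier mark from the scanner software. The gap of 6.53 between these arrays was matched or passed by 2 of 35241 probes in healthy dog 1, PRKDC included, where the median gap was 0.193. In the other dogs a gap as large occurred for 3 probes of benign dog 3 and for 0 probes of the rest. The raw median signal, with no background taken off and scaled in the same way, gave 0.25 on array a and -2.77 on array b. Array b is the healthy array of slide 4, where malignant minus healthy PRKDC was 7.27, while it was 0.61 on slide 2 and 0.35 on slide 5. Benign minus healthy PRKDC was 0.60 on slide 2 and 0.50 on slide 5. With the slide as a block the log2 fold change of PRKDC was 2.79 (SE 4.74) in malignant and 2.19 (SE 5.0) in benign tumours.

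The fold change of PRKDC was therefore computed with and without array b, a choice made after seeing the data. With all arrays, the log2 fold change by limma was 2.37 in malignant tumours (5.16-fold, SE 0.729, adjusted p = 0.566 by Benjamini-Hochberg) and 2.23 in benign tumours (4.69-fold, SE 0.796, adjusted p = 0.646), with exact permutation p of 0.0952 and 0.2. Without array b it was 0.73 in malignant (1.66-fold, SE 0.427, adjusted p = 0.896 by limma) and 0.60 in benign tumours (1.51-fold, SE 0.466, adjusted p = 0.848 by limma). Over all alternatives tried, the adjusted p of PRKDC by limma ran from 0.00428 to 0.999999 in malignant and from 0.00757 to 0.99997 in benign tumours. It was called only where healthy dog 2 was left out, with log2 fold changes of 4.00 and 3.87 against the mean of healthy dog 1. Without array b the healthy dogs differed by 0.0099 in PRKDC, and each of the 8 tumours was still above both of them, by 0.25 to 1.27 from the healthy mean. Such separation held for 2.75% of all probes without that array. A higher PRKDC level in every tumour analysed was thus measured with or without the spot, but its size fell from 5.16-fold to 1.66-fold in malignant tumours, and neither size passed the test.

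**Figure D3:**
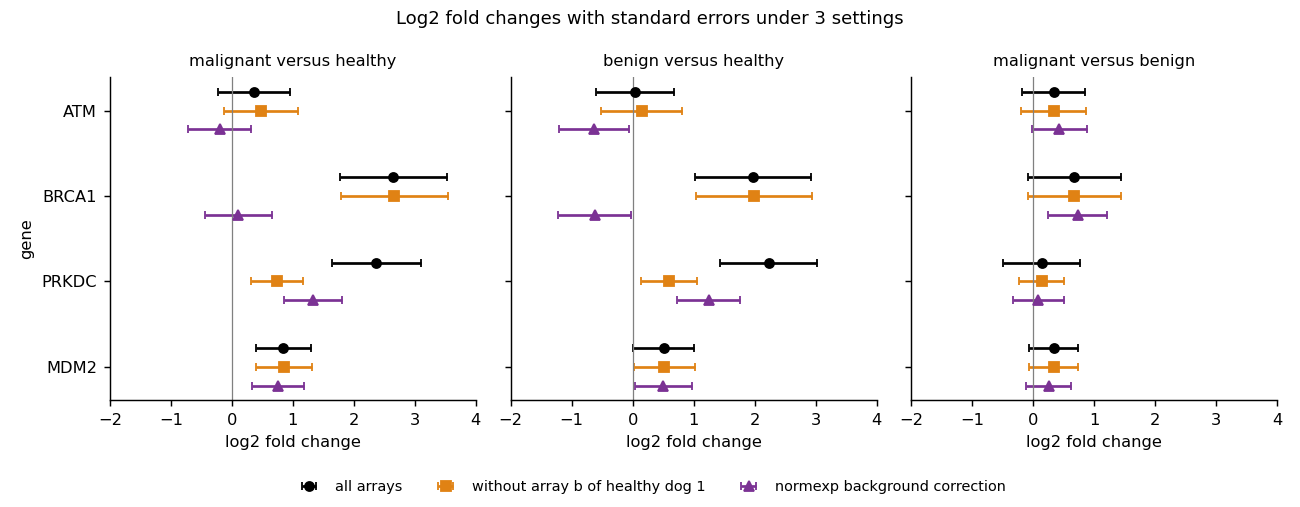
Log2 fold change (points) with its standard error (bars) of the 4 genes in each comparison, with all arrays, without array b of healthy dog 1 and with normexp background correction. PRKDC falls from 2.37 to 0.73 in malignant tumours without array b, and BRCA1 from 2.65 to 0.10 with normexp.

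BRCA1, of the repair proteins, was not well above background on any of the 4 healthy arrays, on which its processed signal was 4.02 to 7.96. It was well above background on 8 of 9 malignant and 4 of 6 benign arrays, and the exceptions were malignant dog 5, with its single array, and benign dog 1, with both. Its level was -3.12, -4.27, -2.81, -4.24 and -5.63 in malignant dogs 1 to 5 and -6.06, -3.08 and -4.92 in benign dogs 1 to 3, against measured values of -6.52 and -6.80 in the healthy dogs. In these measured values each tumour lay above both healthy dogs, but not in the raw median signals. There benign dog 1, at -4.29 and -3.97 on its arrays, and benign dog 3, at -3.76 and -3.54, lay below the 4 healthy arrays, at -3.15 and -2.96 in healthy dog 1 and -3.41 and -3.40 in healthy dog 2. Malignant dogs 2, at -3.39 and -3.48, and 5, at -3.37, lay below both arrays of healthy dog 1. The raw signals include the local background, which was 37 to 42 on the healthy arrays and thus well over the processed signal of BRCA1 there, so that neither scale settles the order of dogs near background. The levels of the tumours spread over 3.25 log2 units, with the highest level in malignant dog 3 and the lowest in benign dog 1. The group means were ordered malignant (-4.01 ± 1.12 SD, n = 5), benign (-4.69 ± 1.51, n = 3) and healthy (-6.66, n = 2), and malignant and benign did not differ beyond their spread.

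Against healthy tissue BRCA1 has only an approximate bound, set by the dimmest probe still well above background on each healthy array, a level of -4.91 on average. On the processed signals, the mean of malignant tumours was 1.86-fold and that of benign tumours 1.17-fold above it. These means keep the measured values of malignant dog 5 and benign dog 1, which were not well above background, so that neither fold is a strict lower bound. Of the dogs, 4 of 5 malignant but 1 of 3 benign exceeded that limit. These bounds did not hold with normexp, as given below. The measured means differed by 2.65 (SE 0.875, adjusted p = 0.655 by limma with Benjamini-Hochberg) in malignant and by 1.98 (SE 0.955, adjusted p = 0.747) in benign tumours, with exact permutation p = 0.0952 and 0.2. Over all alternatives the adjusted p by limma ran from 0.00896 to 0.999999 in malignant and from 0.0636 to 0.999964 in benign tumours. The lowest in malignant tumours came from counting the arrays of a dog as separate replicates. Within slides, malignant minus healthy BRCA1 was 3.31, 2.88 and 2.87 on slides 2, 4 and 5, and benign minus healthy was 0.068 and 1.90 on slides 2 and 5. With the slide as a block it was 3.05 and 2.01.

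The size of the BRCA1 difference depended on how the background was treated. With normexp, which keeps dim signals away from 0, it was 0.10 in malignant and -0.62 in benign tumours, or 0.30 and -0.13 relative to the median of all probes. From the raw median signals it was 0.32 and -0.28, or 0.46 and 0.08 relative to the median of all probes. The bound itself was 0.90 in malignant and 0.23 in benign tumours on the log2 scale, and with normexp it was 0.092 and -0.64, near or below healthy tissue. The healthy arrays also had the lowest median signal over background, as given above. The arrays of malignant dog 3 had a 75th percentile of 6.37 and 8.46 times the local background, and the healthy arrays 8.58 to 18.7 times. BRCA1 was well above background on both arrays of malignant dog 3, which had the highest BRCA1 level of all dogs. The part of signal over background in this result was not tested. BRCA1 transcripts were thus detected in most tumours and in neither healthy sample, and the data do not fix by how much the groups differ.

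MDM2, the ubiquitin ligase, was bright and well above background on all 19 arrays. Its level was 1.19, 0.74, 1.01, 1.68 and 1.69 in malignant dogs 1 to 5, 0.80, 0.77 and 1.22 in benign dogs 1 to 3, and 0.75 and 0.083 in healthy dogs 1 and 2. All tumours but malignant dog 2, which was just under healthy dog 1, lay above both healthy dogs, 7 of 8 in all. Malignant dogs 4 and 5 were highest, and benign dogs 1 and 2 were within 0.050 and 0.021 of healthy dog 1. The means were ordered malignant (1.26 ± 0.42 SD, n = 5), benign (0.93 ± 0.249, n = 3) and healthy (0.42, n = 2), with overlap between malignant and benign and, through healthy dog 1, near contact of benign and healthy. The log2 fold change by limma was 0.85 (SE 0.457, adjusted p = 0.897 by Benjamini-Hochberg) in malignant and 0.51 (SE 0.499, adjusted p = 0.916) in benign tumours, with exact permutation p of 0.190 and 0.2. Neither passed the test, though MDM2 was positive under all 25 alternatives in each of these comparisons, from 0.48 to 1.18 in malignant and from 0.18 to 0.85 in benign tumours. Within slides, malignant minus healthy MDM2 was 0.81, 0.16 and 1.55 on slides 2, 4 and 5, and benign minus healthy was 0.45 and 0.88 on slides 2 and 5. With the slide as a block it was 0.70 and 0.49. Malignant dog 6, not among these dogs, had only raw median signals, on which MDM2 was at 0.017 and -0.071. On that scale healthy dog 1 was at 0.60 and 0.57 and healthy dog 2 at -0.046 and -0.036.

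As the tissues are bulk samples, fewer cells that carry a transcript and less of it in each cell cannot be told apart for any of these genes. Leukocyte markers, 7 of 14 on the array, summed to 1.54 and 4.57 in healthy dogs 1 and 2 and to 5.16 to 21.4 in tumours, led by CD86 or CYBB, and limma called 1 of them, FCGR1A, higher in benign tumours. Of the 7, FCGR1A and CD86 were above both healthy dogs in all 8 tumours, and CYBB in all 3 benign but 1 of 5 malignant dogs. The lymphocyte markers were mixed. CD4 lay below both healthy dogs in 4 of 5 malignant dogs. MS4A1 did so in 3 of 5, with just 2 of the 9 arrays of that group marking it as well above background. CD8A and CD79A lay below both healthy dogs in no tumour. Their log2 fold changes were 0.98 and 0.44 in malignant and 0.59 and 0.44 in benign tumours. The median log2 fold change of the 7 was 0.55 in malignant and 0.59 in benign tumours. Proliferation markers, 3 of 14 on the array and led by TYMS, summed to 9.25 and 5.97 in the healthy dogs and to 5.94 to 19.1 in tumours. TYMS, the most abundant of them in every dog, was at 3.13 and 2.46 in the healthy dogs and at 2.29 to 3.37 in tumours. The others, BIRC5 and CCNB2, were higher in all 8 tumours than in both healthy dogs, BIRC5 at -0.33 to 2.28 against -1.01 and -1.60, and the median log2 fold change of the 3 proliferation markers was 2.59 in malignant and 2.61 in benign tumours. Endothelial markers, 2 of 5 and led by VWF, summed to 33.7 and 68.6 against 9.07 to 46.3. FCGR1A, CD86, BIRC5 and CCNB2 were thus above both healthy dogs in all 8 tumours, as PRKDC was, and the part of such markers in the levels of PRKDC and BRCA1 was not tested.

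Whether malignant and benign tumours differ was compared in the same fit. Limma called 0 of the 4 genes and 0% of all probes (smallest adjusted p = 0.9998), with 0 of the 4 genes and 1.8% of all probes (636) at an unadjusted p of at most 0.05, where the methods' t-test gave 802 probes and 0 of the 4. Malignant minus benign log2 fold changes were 0.33 for ATM (SE 0.515, 95% interval -0.81 to 1.47), 0.67 for BRCA1 (SE 0.764, -1.01 to 2.36), 0.14 for PRKDC (SE 0.637, -1.27 to 1.54) and 0.33 for MDM2 (SE 0.399, -0.55 to 1.21). Exact permutation p over 5 and 3 dogs was 0.536, 0.5, 0.607 and 0.357 in the same order, where 0.0357 is the smallest possible. The ranges of malignant and benign dogs overlapped for each of the 4 genes. The BRCA1 difference rested on benign dog 1, without which it was -0.016, and that of PRKDC on benign dog 3, without which it was -0.038.

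Within slides, malignant minus benign values had mixed signs for 3 of these genes. Malignant minus benign ATM was -0.26, 0.58, 1.00 and 0.061 on slides 2, 3, 5 and 6, and PRKDC was 0.0069, 0.011, -0.16 and -0.27. BRCA1 was 3.24, 0.66, 0.97 and -0.69 on these slides. MDM2 alone was above 0 on each of them, at 0.36, 0.36, 0.67 and 0.11. These intervals are wide, and a p that misses the threshold does not show that malignant and benign tumours are alike in these genes.

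How far the 4 genes vary between dogs was set against all probes tested, whose median SD over the 10 dogs was 0.787. The SD of MDM2, 0.482, lay at percentile 13.4 and that of ATM, 0.622, at percentile 30.4, so that both varied less than most probes. PRKDC, with an SD of 1.27 (percentile 80.7), varied more through the spot on array b alone, and without that array its SD was 0.396, at percentile 5.74, the lowest of the 4 genes. The SD of BRCA1 over all dogs is not fixed, as its healthy values are not well above background. Over the 8 tumours alone the range was 2.0 for ATM, 1.02 for PRKDC and 0.95 for MDM2, and 3.25 for BRCA1, with its lowest 2 dogs not well above background. Pearson's r over the 10 dogs was 0.37 between ATM and BRCA1, 0.34 between ATM and PRKDC and 0.47 between BRCA1 and PRKDC, and over the 8 tumours alone it was 0.40, 0.14 and -0.18. MDM2 had 0.064 with ATM, 0.33 with BRCA1 and 0.30 with PRKDC over the 10 dogs, and 0.093, -0.23 and 0.12 over the tumours. The genes thus followed each other loosely, and the positive values of BRCA1 with PRKDC and with MDM2 came with the healthy dogs, where BRCA1 was not well above background and PRKDC holds the value of array b.

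Of 135 other genes listed for the DNA damage response, 13 were paired with a probe, and all of them were tested. The pairing of probes with symbols covers 1458 genes, and ATR and the genes of end joining, nucleotide excision and mismatch repair on the list were not analysed here. Limma called 0 of the 13 in any comparison. At an unadjusted p of at most 0.05 it gave 4 of 13 in malignant tumours against healthy tissue (5.81% of all probes), 5 in benign tumours against healthy tissue (6.78%) and 1 between the tumour groups (1.8%). Log2 fold changes were positive for 11 of 13 in malignant and in benign tumours, with medians of 1.28 and 1.18, while 54.1% and 51.4% of all probes were positive, with medians of 0.07 and 0.03. The medians were 0.43 and 0.70 without healthy dog 1 and 1.47 and 1.62 without healthy dog 2, and with normexp they were 0.74 and 0.72, with 10 and 9 of 13 positive. Between malignant and benign tumours 7 of 13 were positive, with a median of 0.0031, beside 0.06 for all probes. Several of these genes (CCNB2, CCNB3, CCND1, BAX, CASP8 and BRCA2) were listed by the study from these samples, so that their direction is not independent evidence.

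By role, the checkpoint genes were led by the B-type cyclins. The CCNB2 values are the same measurement counted above among the proliferation markers. CCNB2, which drives entry into mitosis with CDK1, was at 0.67, -0.44, 1.99, 1.17 and -0.99 in malignant dogs 1 to 5, -1.98, 1.72 and 2.22 in benign dogs 1 to 3, and -6.11 and -2.95 in the healthy dogs. Every tumour was above both healthy dogs, with log2 fold changes by limma of 5.01 (adjusted p = 0.291 by Benjamini-Hochberg) and 5.18 (adjusted p = 0.356). CCNB3 had log2 fold changes of 2.86 and 2.49, and CDC25A, the phosphatase that releases cyclin-dependent kinases, had -0.83 and -0.52. As CDC25A was well above background on 2 of 9 malignant, 3 of 6 benign and 2 of 4 healthy arrays, its direction is not settled. The 4 checkpoint genes tested had medians of 2.11 in malignant and 1.57 in benign tumours, or 1.17 and 0.65 with normexp. None of them passed the test over dogs. With the dog as a random block over arrays, limma called CCNB2 in malignant tumours (adjusted p = 0.0447 by Benjamini-Hochberg). With arrays as independent samples limma called CCNB2 and CCNB3 in both tumour groups, but the arrays of a dog then count as separate replicates. That fit called 1540 probes in malignant and 2506 in benign tumours, against 147 and 134 over dogs, so that its calls overstate the evidence. Over all alternatives the adjusted p of CCNB2 by limma ran from 0.00190 to 0.999999 in malignant and from 0.00313 to 0.999964 in benign tumours. Without healthy dog 1, in which it was not well above background, CCNB2 had 3.43 and 3.60, and without healthy dog 2 it had 6.59 and 6.76. With normexp the log2 fold changes were smaller, 2.44 and 2.67 for CCNB2 and 1.02 and 0.58 for CCNB3.

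In homologous recombination, BRCA1 stood beside BRCA2, with which it acts in the repair of DNA breaks. BRCA2 was at 0.39, -0.21, 1.58, 0.58 and -2.47 in malignant dogs 1 to 5, -0.91, 0.95 and -0.13 in benign dogs 1 to 3, and -2.97 and -0.85 in healthy dogs 1 and 2, with malignant dog 5 and benign dog 1 between the healthy dogs. By limma, its log2 fold changes were 1.89 (adjusted p = 0.896 by Benjamini-Hochberg) in malignant and 1.88 (adjusted p = 0.798) in benign tumours. Both were 0.82 without healthy dog 1 and 2.95 without healthy dog 2, so that their size depended on which healthy dog was used. In measured levels, benign dog 1 was the lowest of the tumours in BRCA1 and CCNB2 alike. Malignant dog 5, the next lowest in both of these, was the lowest in BRCA2. BRCA1 was not well above background in either dog, so that their place in its order is not settled.

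Of the genes of MDM2 and apoptosis, 5 of 6 were positive in each tumour group, with medians of 0.88 in malignant and 0.85 in benign tumours, while with normexp 4 and 3 of 6 were, with medians of 0.32 and 0.18. Without healthy dog 1 the medians were 0.38 and 0.73. PMAIP1, a pro-apoptotic gene induced by DNA damage, was at -2.35, 0.042 and 0.47 in benign dogs 1 to 3, at -1.12 to -2.92 in malignant dogs and at -4.77 and -3.23 in healthy tissue. In benign tumours its log2 fold change was 3.39 (adjusted p = 0.349 by limma with Benjamini-Hochberg), and in malignant tumours 1.80 (adjusted p = 0.852 by limma). With normexp these were 1.67 and 0.59, and without healthy dog 1 they were 2.62 and 1.03. Limma called PMAIP1 in benign tumours with the dog as a random block (adjusted p = 0.0170 by Benjamini-Hochberg). It was also called with arrays as independent samples, where the arrays of a dog count as separate replicates. Over all alternatives the adjusted p of PMAIP1 by limma in benign tumours ran from 0.00224 to 0.999964. CASP8, an initiator of apoptosis, had 1.93 in benign tumours (adjusted p = 0.703 by limma), which turned to -0.14 with normexp. Limma called it only with arrays as independent samples. CASP8 was at -5.76 in healthy dog 1 and -3.41 in healthy dog 2, and its difference in benign tumours was 3.11 against the former alone and 0.76 against the latter alone. BCL2, which holds back apoptosis, had -0.66 in malignant and -1.67 in benign tumours, the largest negative value of the list there, and did not pass the test. In base excision repair, XRCC1, APEX1 and APTX had medians of 0.93 and 0.75, which were 0.31 and 0.13 without healthy dog 1, and not all 3 were positive with the dog number as a replicate block. Against healthy dog 2 alone, APEX1 had 1.26 and 1.57, XRCC1 0.31 and 0.13, and APTX 0.20 and 0.012. CCNB2, CCNB3, PMAIP1 and CASP8 were well above background on both arrays of healthy dog 2 and on neither of healthy dog 1. Healthy dog 1 had the higher sums of pancreas markers. Its 75th percentile was 13.3 and 8.58 times the local background on arrays a and b, against 18.7 and 14.9 times in healthy dog 2. The part of these differences in the fold changes was not tested.

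**Figure D4:**
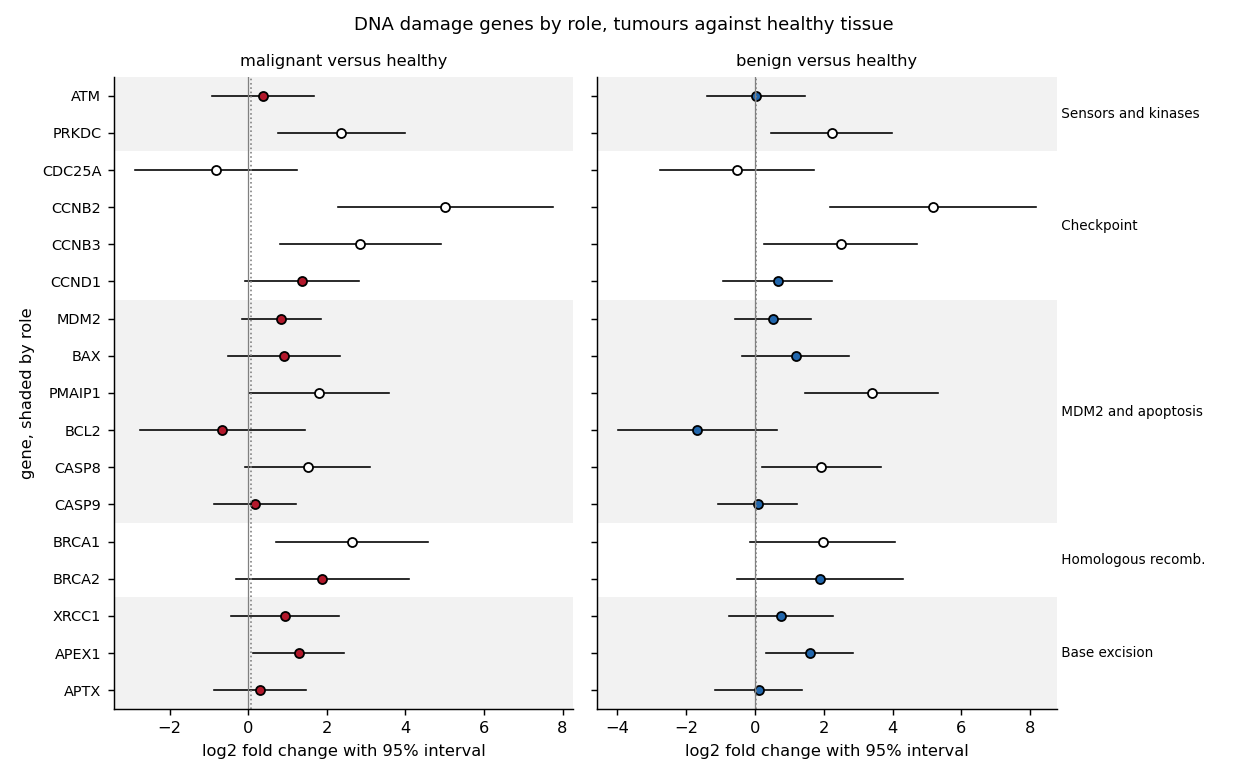
Log2 fold change (points) with 95% interval (lines) of the DNA damage genes tested, grouped by role in shaded bands, for malignant (left) and benign (right) tumours against healthy tissue. Open points are genes not well above background on at least 1 healthy array, the dotted line is the median of all probes (0.07 and 0.03), and most genes lie to its right, with BCL2 and CDC25A to its left.

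For each of the 4 genes, the symbols whose levels followed it most closely over the 10 dogs were found among genes well above background on all arrays, 877 for ATM and MDM2 and 878 for BRCA1 and PRKDC. The dogs share group and array quality, so that these values describe the dogs only. ATM was followed by ABCC4 (r = 0.893), SULT1A1 (0.863), DKK3 (0.842) and PDE5A (0.832), and these values stayed at 0.826 or above in the 8 tumours alone. MDM2 was followed by EIF4E2 (r = 0.880), NDUFS8 (0.821), PFDN6 (0.816) and SNRPG (0.813), with 0.803 or above in the tumours. BRCA1 was followed by RPP21 (r = 0.846), BRCA2 (0.828), DDX39B (0.80) and BIRC5 (0.797), of which BRCA2 had 0.846 and BIRC5 0.566 in the tumours alone. BRCA1 was not well above background in 4 of the 10 dogs, so that these values rest in part on background signals. The nearest genes of PRKDC were PSMB7 (r = 0.895), CCS (0.871), CLIC1 (0.866) and RBM12 (0.831), and in the 8 tumours these values were 0.810, 0.486, -0.11 and 0.21. The likeness of PRKDC to CCS, CLIC1 and RBM12 was thus much lower without the healthy dogs, one of which holds the value of array b. The nearest genes were picked over dogs that include these 8 tumours, so that the values in tumours are no separate evidence of likeness.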

How the data were processed

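Expression was measured in mammary tissue of dogs on 1-colour Agilent arrays of 45220 spots, 1417 of them controls. The authors deposited intensity values of 2 kinds, both linear. For each array, Feature Extraction 11.5.1.1, per the labels, gives the processed signal, which is background-subtracted and spatially detrended, signals at background being replaced by small positive ones. Median intensities of spots and local backgrounds were deposited too, with other marks for spots that are well above background, outliers or controls. The table of signals that the authors deposited is, in 45220 of 45220 spots and for 19 of 19 arrays compared, the median spot intensity itself, neither background-corrected nor scaled or centred between arrays. Malignant dog 6, and array b of malignant dog 5, were used through that table alone. No column of comparisons was used.

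From the log2 of the processed signal, the 75th percentile of non-control probes on that array, outlier spots left out, was subtracted. Probes with several spots were averaged (50 probes), then the arrays of a dog. The labels call the arrays biological duplicates and the methods of the study call them duplicates of a sample, so that the dog was the replicate. Probes well above background on at least 4 of 19 arrays (35285 of 43603) were fitted with limma 3.58.1 (with statmod 1.5.0 in R 4.3.3, values read with version 1.17.8 of data.table), all 3 groups in 1 model, and called where the Benjamini-Hochberg adjusted p, over every probe tested, was at most 0.05. The fit was tested on simulated data. Exact permutation tests over dogs were 2-sided. Where a gene was not well above background on any array of a group, each array was given the lowest signal of a probe well above background, or its own where higher. The other group kept its measured values, so that the fold is an approximate bound. Slides came from the scanner headers and, with 6 slides, were taken as batches, each malignant, benign or healthy array being set against the others of its slide. Slide 1 held the 1 array of malignant dog 5, from another scanner, and gave no value within the slide. The number of arrays and dogs limits the precision of all values.

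Symbols were taken from RefSeq genes of the assembly UU_Cfam_GSD_1.0 by transcript, and no coordinates were used, as the probes were placed on another build. Of 2441 probes for curated mRNAs 2348 were named, and 0 of 3746 for predicted mRNAs. Named were the 4 members, the genes of the DNA damage list with the 4 largest positive and 4 largest negative changes among those detected on 1 or more arrays in both groups compared, the 4 genes closest to each member by Pearson correlation, and the most abundant gene of each marker list. Items of the list that are not reported here were taken off it before counting. Other genes of the list were named after their values were seen. Milk protein markers (3 of 6 on the array) were most abundant in malignant dog 2, with CSN2 at a level of 8.48, and skeletal muscle markers (6 of 8) in malignant dog 2, with CKM at 1.87. The members and lists were chosen with earlier results of these data known. The alternatives were normexp with an offset of 50, quantile and median scaling, the deposited table, other filters and probe choices, arrays as samples, the dog, slide or dog number as a block, the 2 groups alone, other spread settings, the methods' t-test, run unpaired as the groups are separate dogs where the methods name a paired test, and leaving out each dog. Normexp used the median spot intensity where the mean had been planned. Leaving out array b of healthy dog 1 and the alternatives for the BRCA1 bound and the DNA damage list were added after seeing the data.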

Additional observations from a re-analysis of the deposited data

Results flagged for a closer look

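In 17 groups of 5 malignant dogs, for the DNA damage genes, no dog stood apart by Dixon's criterion. Taken by array, in 12 groups of 4 to 9 arrays of the 4 members, a single array stood apart from the others of its group in 3. On array b of healthy dog 1, PRKDC lay below the other healthy arrays by a gap of 0.985 of the group's range. On array a of malignant dog 5, the 1 array of slide 1, PRKDC lay above the other malignant arrays by 0.502 of the range. On array b of healthy dog 2, BRCA1 lay below the other healthy arrays by 0.830 of the range, with no healthy array well above background. Chance would set apart about 1 in 20 such groups, and the arrays of a dog are not independent.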

How the results depend on the processing

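Of 25 alternatives, MDM2 kept its sign in all of them in each comparison. ATM turned negative in malignant tumours against healthy tissue with normexp (-0.20) and the deposited table for the same arrays (-0.033), and ran from -0.041 to 0.78 when single dogs were left out. In benign tumours ATM was -0.63 with normexp, -0.38 with the table for the same arrays and for all 22 arrays, -0.041 with the slide as a block and -0.17 with the dog number as a replicate block, and -0.37 to 0.45 without single dogs. BRCA1 in malignant tumours was 2.83 with arrays taken as independent samples, where limma called it (adjusted p = 0.00896). The arrays of a dog count there as separate replicates. BRCA1 in benign tumours was -0.62 with normexp and -0.28 with the table in both forms, and its log2 bound with normexp was -0.64. BRCA1 between malignant and benign tumours ran from -0.016 to 1.48 without single dogs. PRKDC ran from 0.73 to 4.00 in malignant and from 0.59 to 3.87 in benign tumours, the highest without healthy dog 2, and between tumour groups from -0.038 to 0.29 without single dogs and 0.60 with the slide as a block. CDC25A in benign tumours ran from -1.12 to 0.41 without single dogs and was -1.27 with normexp, and CASP8 was -0.14 with normexp. The median of all probes moved by -0.26, -0.52 and 0.27 in the 3 comparisons with normexp, by -0.22, -0.39 and 0.18 with the table for the same arrays, by -0.19, -0.39 and 0.21 with the table for all arrays, and by -0.11 and -0.12 against healthy tissue with no filter. Relative to it, PRKDC was 1.52 and 1.74 and MDM2 0.95 and 1.00 with normexp in malignant and benign tumours. ATM relative to it was -0.0082 and -0.14 with normexp, and 0.11 and -0.022 with the table for the same arrays. The cause of these changes was not tested.

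Probes called in malignant tumours against healthy tissue, 147 with all dogs, numbered 42 among probes well above background on every array, 88 with the brightest probe of each gene, 1540 with arrays as independent samples (630 higher and 910 lower), 89 with the replicate block, and 96 to 950 without single dogs, reached by leaving out healthy dog 1 and healthy dog 2 in turn. The methods' t-test gave 1415 without adjustment (745 higher and 670 lower), 32 with Benjamini-Hochberg and 32 with Storey's correction. In benign tumours, 134 became 39, 81, 2506 (1262 higher and 1244 lower) and 85 in the same order, 37 with the 2 groups alone, and 86 to 994 without single dogs, again healthy dogs 1 and 2. The t-test gave 1716 without adjustment, and 0 with either correction. Between malignant and benign tumours, 0 became 48 with arrays as independent samples, 802 with the t-test without adjustment, and 0 to 2 without single dogs. Of the 4 genes, 1 was called in malignant tumours with arrays as independent samples and 2 by the t-test without adjustment, and 0 to 1 without single dogs in each comparison with healthy tissue, the 1 being PRKDC without healthy dog 2. A group left with 1 dog was assumed to vary like the others.

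The dog numbers do not pair the samples: 7 same-numbered pairs had correlations of -0.17 to 0.11, 1 of them over 0.1, and the replicate block called 0 of the 4 genes. Each gene has 1 probe, so that other probes gave no value, and BRCA1 and PRKDC have none where probes had to be well above background on every array. BRCA1 was not well above background on any healthy array, so that its fold against healthy tissue is an approximate bound.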

Other observations

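In the deposited table of median intensities, put on the log2 scale minus the 75th percentile of each array, the arrays without scanner values can be placed beside the others. Array b of malignant dog 5 had ATM at -2.0, BRCA1 at -3.47, PRKDC at 1.34 and MDM2 at 1.56, and array a of the same dog -2.18, -3.37, 1.4 and 1.46. The high PRKDC level of malignant dog 5 was thus present on both of its arrays. Malignant dog 6 had ATM at -1.88 and -1.95 on arrays a and b, BRCA1 at -2.90 and -3.07, and PRKDC at 0.45 and 0.30. Its MDM2 level was 0.017 and -0.071, the lowest of the malignant dogs and near healthy dog 2, at -0.046 and -0.036 on the same scale. With malignant dog 6 included, MDM2 in malignant tumours was 0.61 above healthy tissue on this scale, against 0.78 without it.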
